A study of Rattus norvegicus with 3 samples.

Results

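The potassium channel genes of the rat heart were described across the nuclei of 3 single-nucleus RNA-seq libraries. All symbols that start with Kcn were taken, and a gene counted as a member when at least 50 UMIs (unique molecular identifiers, each standing for 1 captured transcript) were summed over the nuclei of the libraries. The rule found 55 members among 92 Kcn symbols and 22250 genes. Of these, 22 of 38 symbols were voltage-gated subunits, 9 of 15 inward rectifiers, 6 of 14 tandem-pore channels and 12 of 17 auxiliary subunits. A further 6 of 8 symbols were grouped by name as calcium- or sodium-activated channels. Just inside the limit were Kcnj9 with 51 and Kcnip4 with 52 UMIs, and just outside it were Kcnh5 with 46 and Kcnt1 with 41 UMIs. Among genes known from cardiac currents, Kcna5 had 2, Kcne4 had 2, Kcnj4 had 1 and Kcnk1 had 34 UMIs and were not members. Kcnd2 was not among the 92 Kcn symbols and was not counted.

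Nuclei came from the heart apex, with part of the septum and of both ventricles, of rats at 12 months of age, and were sorted on DAPI before loading. The WT library came from wild-type rats, the BMD library from genome-edited rats with an in-frame deletion of Dmd exons 45 to 47, and the DMD library from rats with a deletion of Dmd exon 52. The study compared these genotypes to describe the heart in Becker and in Duchenne muscular dystrophy. The number of animals behind a library is not given in the sources used here. There was 1 library per genotype, so no test between genotypes was possible, and all intervals below are at 95% and cover counting error only.

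Potassium channels let potassium leave the cell and so set its resting potential and end the action potential. In ventricular cardiomyocytes, transient outward channels give early repolarisation, delayed rectifiers give late repolarisation, and inward rectifiers hold the resting potential. Vascular, immune and glial cells carry other members, among them the ATP-sensitive channels of pericytes and calcium-activated channels.

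The 24664 nuclei were clustered without any Kcn gene, and 10 classes were named from marker lists. Libraries held 19215994 to 21609238 UMIs, with a median of 1212.5 to 1486.5 UMIs per nucleus, and the pairs of libraries shared 12 to 20 nucleus barcodes. Cardiomyocyte-like nuclei numbered 2031 (WT), 1530 (BMD) and 1063 (DMD), with a median depth of 2764, 3769 and 3265 UMIs. The unnamed clusters held 486, 250 and 425 nuclei, of which 62.4 to 82.3% were called doublets. The cardiomyocyte marker list summed to 18673 CPM (UMIs per 1000000 UMIs of the class and library) in the WT, 20884 in the BMD and 20604 in the DMD nuclei of this class. Dmd itself was at 16471, 20556 and 19466 CPM in the same order, and a count over the whole gene does not show whether an exon is missing. Free RNA, meaning transcripts outside nuclei that are captured with them, was estimated at 1.36 to 2.01% of the UMIs of cardiomyocyte-like nuclei.

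Members held 139826 UMIs over all nuclei, 0.305% of the total, and Kcnq1, Kcnd3, Kcnj3 and Kcng2 held 73.7% of them. The number of UMIs depends on the gene as well as on its expression, so levels are compared below between libraries and classes and never between genes. Where 3 values follow each other they are those of WT, BMD and DMD in this order, and where 2 log2 ratios do, they are BMD and DMD over WT unless a cluster is named.

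Promoters of the members were taken from RefSeq (build GRCr8), which matched 35 of 55 members with 39 starts. The counts were made on another build, so these positions are not those of the counting. The 4 promoters printed here belong to genes that the results turn on, namely Kcnj8 of pericyte-like nuclei, Kcnj5, which was lower in BMD and DMD cardiomyocyte-like nuclei, and Kcnip2 and Kcna4 of the transient outward current. Each is the run of 250 bases before the start, written 5′ to 3′ on the strand of the gene. They lie at chr4:177246549-177246798 (minus strand) for Kcnj8, chr8:39011097-39011346 (minus strand) for Kcnj5, chr1:254613899-254614148 (minus strand) for Kcnip2 and chr3:114215086-114215335 (plus strand) for Kcna4. Capitals mark GGGCGG on either strand, the GC box.
Kcnj8: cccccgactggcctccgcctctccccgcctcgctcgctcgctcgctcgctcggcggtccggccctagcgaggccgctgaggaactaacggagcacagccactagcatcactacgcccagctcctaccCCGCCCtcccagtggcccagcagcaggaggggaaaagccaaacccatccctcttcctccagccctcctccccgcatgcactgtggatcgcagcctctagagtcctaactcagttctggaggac
Kcnj5: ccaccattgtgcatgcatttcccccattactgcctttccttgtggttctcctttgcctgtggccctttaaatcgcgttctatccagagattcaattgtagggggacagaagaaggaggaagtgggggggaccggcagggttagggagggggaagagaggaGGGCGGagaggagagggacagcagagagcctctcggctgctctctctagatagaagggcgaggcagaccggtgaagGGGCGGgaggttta
Kcnip2: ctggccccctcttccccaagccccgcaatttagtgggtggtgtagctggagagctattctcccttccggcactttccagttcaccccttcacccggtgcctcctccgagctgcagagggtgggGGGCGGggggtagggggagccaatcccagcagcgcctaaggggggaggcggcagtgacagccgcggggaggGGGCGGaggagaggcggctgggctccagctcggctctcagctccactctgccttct
Kcna4: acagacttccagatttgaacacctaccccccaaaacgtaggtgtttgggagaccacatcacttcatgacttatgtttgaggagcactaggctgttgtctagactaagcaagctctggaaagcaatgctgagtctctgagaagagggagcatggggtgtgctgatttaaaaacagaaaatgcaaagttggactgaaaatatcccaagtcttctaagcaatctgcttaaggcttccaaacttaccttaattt
The GC box was present once or more in 23 of the 39 member promoters (59.0%) and in 30.5% of all 33469 promoters of the same length. TATAAA was in 1 member promoter (2.56%) and in 12.9% of all. AGATAA, known as a site of the Gata factors, was in 4 (10.3% against 10.3%), and CATTCC, known as a site of the Tead factors, was in 1 (2.56% against 12.1%). All were searched on both strands. These matches are letters in a window and were not linked to any measured binding. Members had to reach the UMI limit in the nuclei, whereas the set of all promoters was not restricted to genes that reached it. The part of this difference in the shares of each motif was not tested.

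Where each member was highest was read as CPM in the 10 named classes. In all 3 libraries, 11 members (20.0%) had their highest level in cardiomyocyte-like nuclei, beside 6.18% of the 13359 genes with at least 50 UMIs. These were Kcnq1, Kcnd3, Kcnj3, Kcng2, Kcnj5, Kcnk3, Kcna4, Kcnip2, Kcne1, Kcnc1 and Kcnn1. Pericyte-like nuclei were highest for 6 members (10.9%, beside 2.77% of genes), among them Kcnj8, Kcnab1, Kcnh1, Kcnip4 and Kcnmb2. This class includes nuclei that split off as smooth muscle-like at resolution 1.0. Kcnab1 was at 321, 470 and 405 CPM in those, against 22.7, 34.4 and 45.6 CPM in the pericyte-like cluster. Macrophage-like nuclei were highest for Kcnt2, Kcnk13, Kcnk12 and Kcna2 (7.27% of members, beside 3.92%), and Schwann-like nuclei for Kcnq3, Kcnh8, Kcnc2 and Kcnmb4 (7.27%, beside 2.78%). Some of these places rest on few UMIs over the libraries, such as 9 of Kcnmb4 in Schwann-like and 25 of Kcnip4 in pericyte-like nuclei. Fibroblast-like (Kcnd1 and Kcnv2), lymphatic-like (Kcnn3 and Kcnk5) and lymphocyte-like nuclei (Kcnab2 and Kcnk10) were highest for 2 members each (3.64%, beside 3.46%, 1.84% and 3.91% of genes), and Kcns3 was highest in endothelial-like nuclei. In all, 22 of 55 members (beside 68.8% of genes) did not keep the same highest class in the 3 libraries, among them Kcnh2, Kcnj12, Kcnj11, Kcnk2 and Kcnma1. For Kcnh2, Kcnj12, Kcnj11 and Kcnk2 the cardiomyocyte-like nuclei were passed only by the small monocyte- or neutrophil-like class, with 2 to 7 UMIs of the gene. Kcnma1 was highest in lymphocyte-like nuclei of WT (34 UMIs) and in pericyte-like nuclei of the other libraries (45 and 47 UMIs).

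**Figure D1:**
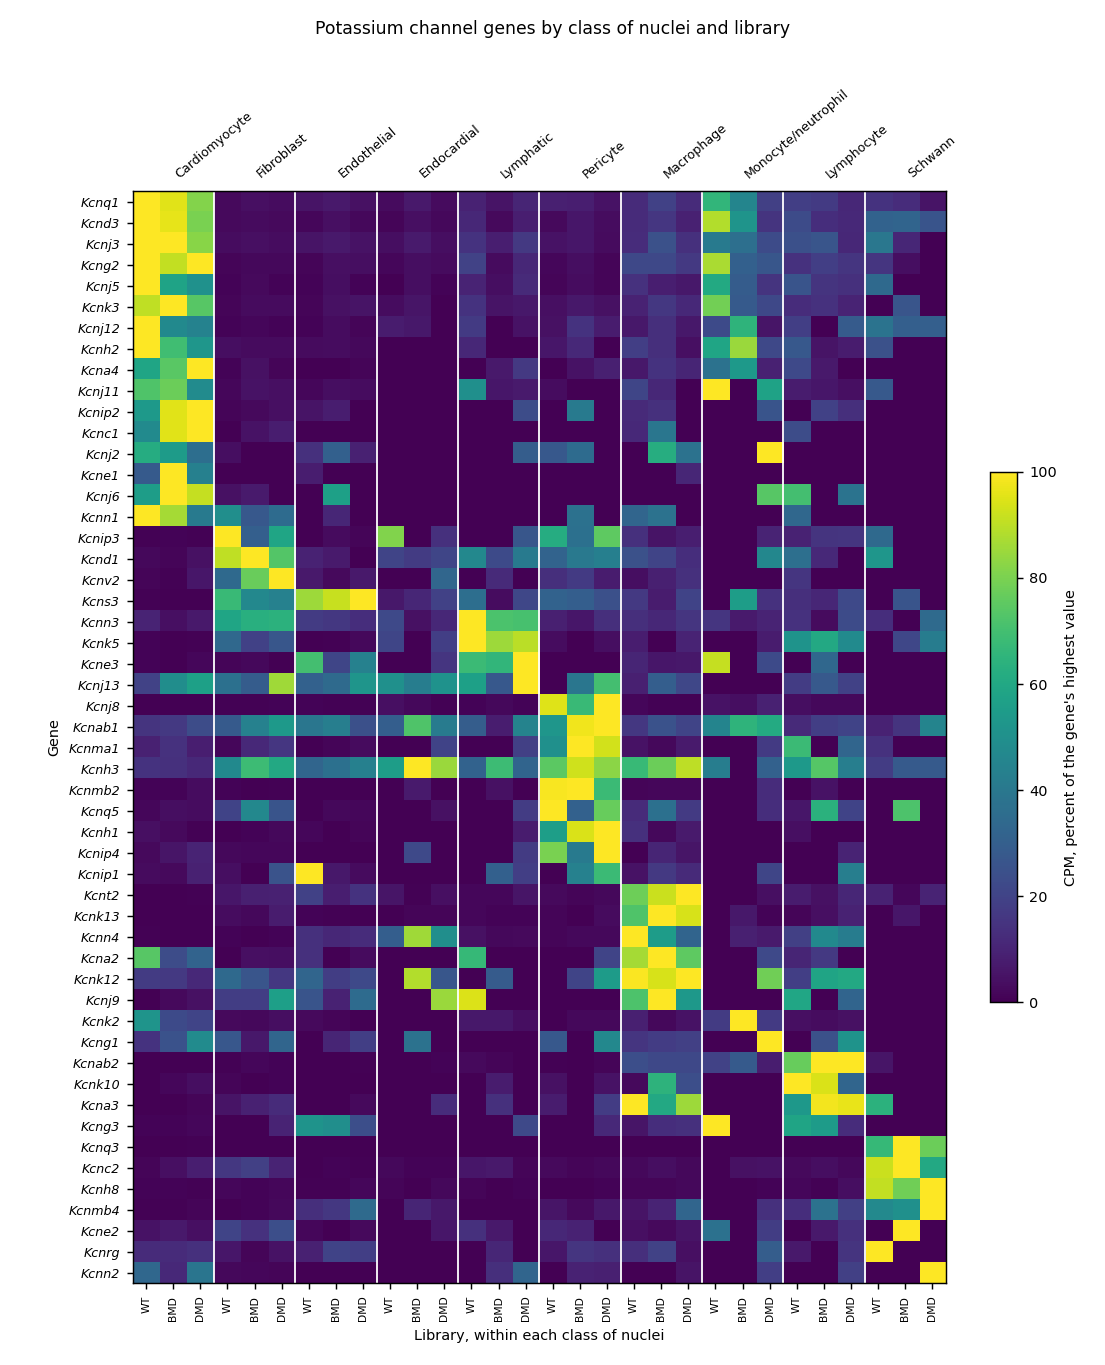
Potassium channel genes (rows, 52 of the 55 members) in 10 classes of nuclei, each with the WT, BMD and DMD library (columns). Colour gives CPM as a percent of the highest value of that gene, so rows are not comparable in level. The upper block of rows is bright in the cardiomyocyte columns, and Kcnj8, Kcnt2, Kcnk13 and Kcnq3 are each bright in 1 other class.

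In cardiomyocyte-like nuclei 32 members had at least 50 UMIs over the libraries, and the other 23 were too sparse for a ratio. A member was counted as higher or lower when the ratio of CPM was at least 1.5-fold and its counting interval left out 1. Against WT, 7 members were higher in BMD (21.9%, beside 7.87% of 10137 genes) and 6 were lower (18.8%, beside 8.37%). In DMD, 9 members were higher (28.1%, beside 9.26%) and 8 were lower (beside 9.04%). These members had a median of 251 UMIs in the class and all genes counted a median of 481. The median log2 ratio of the members was 0.05 in BMD and -0.23 in DMD, beside -0.05 and -0.03 over all genes. The members thus went both ways in both libraries, with 17 above and 15 below 0 in BMD and 15 above and 17 below 0 in DMD. By the size of the ratio alone, 8 members were at least 1.5-fold higher in BMD (beside 9.17% of genes) and 6 lower (beside 9.27%), and 11 were higher in DMD (beside 11.2%) and 9 lower (beside 10.7%). Both comparisons share the WT library. Between the dystrophic libraries, 5 members were higher in DMD than in BMD (beside 6.01% of genes) and 5 were lower (beside 4.35%).

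**Figure D2:**
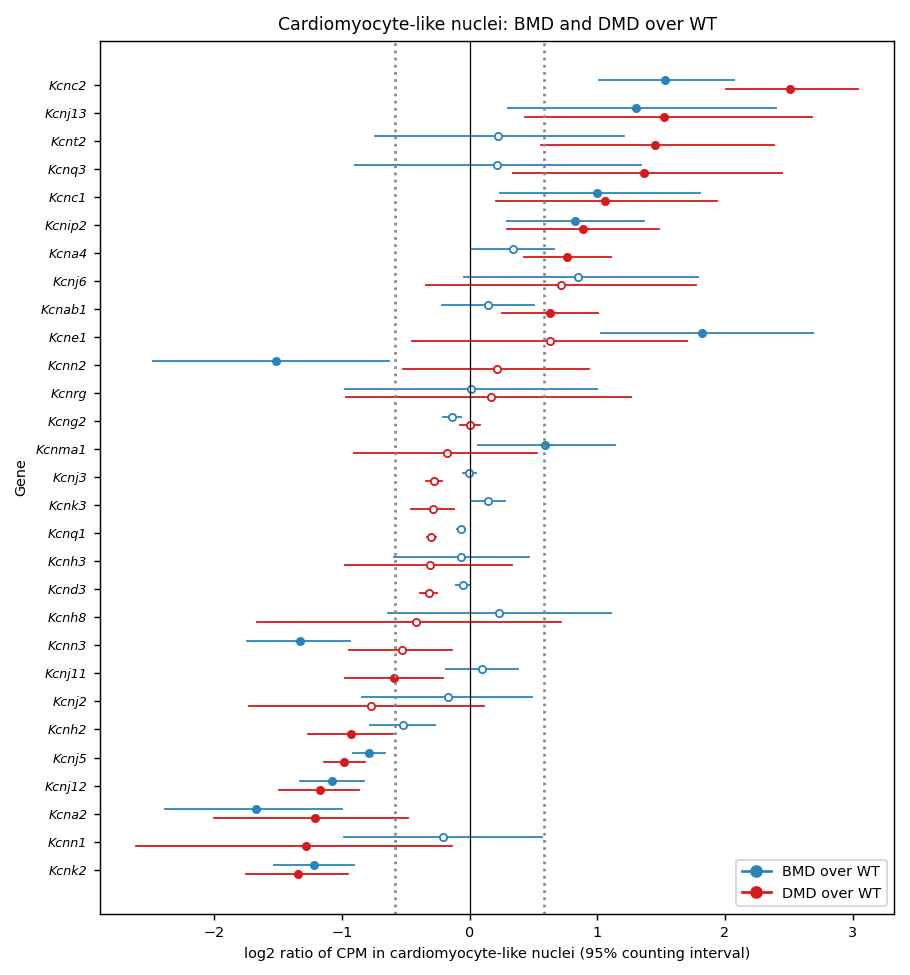
Log2 ratio of CPM in cardiomyocyte-like nuclei for 29 of the 32 members with at least 50 UMIs, BMD over WT in blue and DMD over WT in red, with 95% counting intervals. Filled points are at least 1.5-fold (dotted lines) with an interval that leaves out 0 on this scale. Kcnk2, Kcnj12 and Kcnj5 lie to the left in both libraries and Kcnc2 to the right.

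Among transient outward genes, Kcnd3, a pore-forming subunit, had 965, 929 and 772 CPM (6138, 6188 and 2992 UMIs). Its log2 ratio was -0.05 in BMD and -0.32 in DMD, under 1.5-fold in both. Kcnip2, the calcium-binding partner of the Kv4 pores, was at 7.39, 13.1 and 13.7 CPM (47, 87 and 53 UMIs), lowest in WT. The log2 ratio of Kcnip2 was 0.82 (0.29 to 1.37) in BMD and 0.89 (0.29 to 1.49) in DMD. Kcna4, the pore of the slowly recovering transient outward current, was at 22.6, 28.7 and 38.5 CPM. It was 1.70-fold higher in DMD (log2 0.76, 0.42 to 1.10), and in BMD its log2 ratio was 0.34 (0.02 to 0.66). Kcnab1, a Kv beta subunit, had 19.3, 21.3 and 29.9 CPM and a log2 ratio of 0.63 in DMD. That ratio was 0.49 without called doublets, under the limit. Of these 4 genes Kcnd3 had the ratio nearest to 0 in both libraries, and the other 3 were lowest in WT.

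Among delayed rectifier genes, Kcnq1, the pore of the slow component, was at 2881 CPM in WT, 2746 in BMD and 2341 in DMD. That gave log2 ratios of -0.07 (-0.10 to -0.04) in BMD and -0.30 (-0.34 to -0.26) in DMD. An antisense transcript is known to run across the Kcnq1 locus, and whether the counting used strand is not given in the sources used here. Kcne1, the beta subunit that slows Kcnq1, was at 2.67, 9.46 and 4.13 CPM, from 17, 63 and 16 UMIs. It was 3.54-fold higher in BMD than in WT (log2 1.82, 1.03 to 2.69), and its ratio in DMD was 0.63 with an interval from -0.45 to 1.70. Kcnh2, the pore of the rapid component, was at 49.1, 34.1 and 25.8 CPM (312, 227 and 100 UMIs), highest in WT and lowest in DMD. Its log2 ratio was -0.53 (-0.78 to -0.27) in BMD, short of 1.5-fold, and -0.93 (-1.27 to -0.60) in DMD. Between DMD and BMD the log2 difference of Kcnh2 was -0.40, under 1.5-fold.

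**Figure D3:**
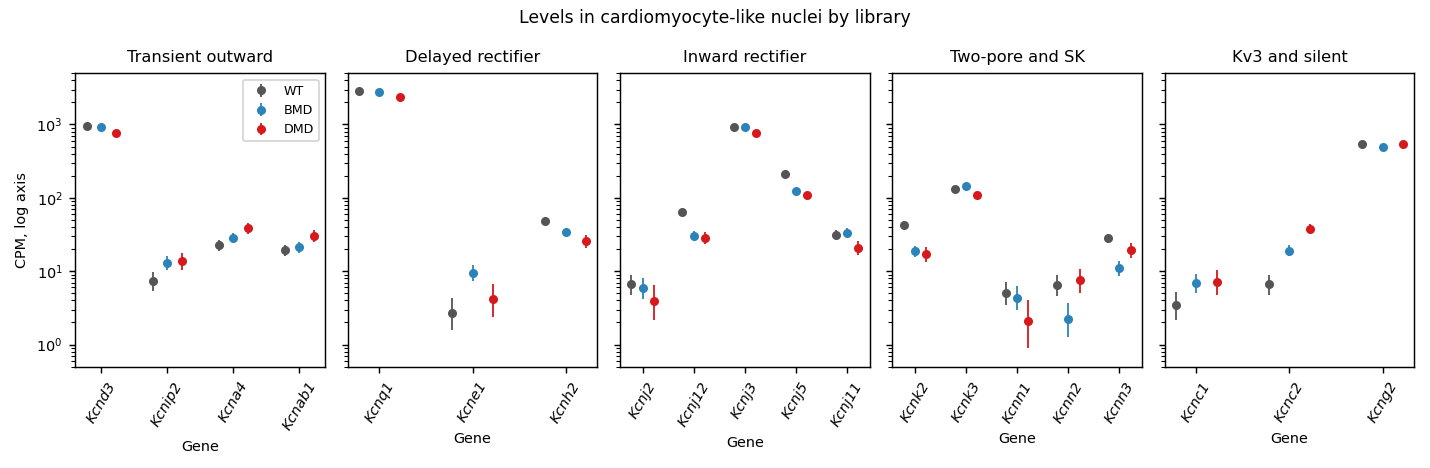
CPM in cardiomyocyte-like nuclei by library (WT grey, BMD blue, DMD red) on a log axis, with 95% counting intervals, for members grouped by current. Points are to be compared between libraries within a gene. Kcng2 is nearly level, and Kcnd3, Kcnq1, Kcnj3 and Kcnk3 are lowest in DMD but within 1.5-fold of WT. Kcnj5, Kcnj12 and Kcnk2 step down from WT and Kcnc2 steps up.

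Inward rectifiers were divided. Kcnj12, 1 of the pores of the resting inward rectifier current, was at 64.0, 30.3 and 28.4 CPM (407, 202 and 110 UMIs). Kcnj12 had log2 ratios of -1.08 (-1.33 to -0.83) in BMD and -1.17 (-1.49 to -0.87) in DMD. Kcnj2, the other main pore of that current, had 42, 39 and 15 UMIs, and its log2 ratios of -0.17 and -0.77 had intervals that held 0. Kcnj3 and Kcnj5 encode the subunits that assemble into the G protein-gated channel opened by acetylcholine and adenosine. Kcnj5 was at 214, 124 and 108 CPM, with log2 ratios of -0.79 (-0.91 to -0.66) in BMD and -0.98 (-1.14 to -0.82) in DMD. Kcnj3 was at 916, 915 and 754 CPM, with log2 ratios of -0.00 (-0.05 to 0.05) and -0.28 (-0.35 to -0.22). The intervals of the ratios of these subunits were apart in both libraries. With each nucleus thinned to 500 UMIs, 32.7% of cardiomyocyte-like nuclei had a Kcnj3 UMI in WT, 31.6% in BMD and 29.2% in DMD. The share was 2.67, 2.98 and 1.80% in endothelial-like nuclei, which were shallower (medians of 791.5, 1085 and 937 UMIs), and without thinning it was 76.6, 77.1 and 72.7% in the cardiomyocyte-like nuclei.

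Kcnj11, the pore of the cardiomyocyte ATP-sensitive channel, was at 31.5 CPM in WT, 33.6 in BMD and 20.9 in DMD. Its log2 ratio was 0.10 (-0.18 to 0.38) in BMD and -0.59 (-0.98 to -0.21) in DMD, and the DMD ratio was at the edge of 1.5-fold, with -0.55 at a limit of 500 UMIs per nucleus. The sulfonylurea receptors that join this pore had similar values. Abcc8 was at 179, 179 and 120 CPM (log2 0.00 and -0.58) and Abcc9 at 936, 924 and 604 CPM (log2 -0.02 and -0.63). Abcc9 is also on the pericyte marker list, whose sum in cardiomyocyte-like nuclei was 992 CPM in WT, 999 in BMD and 667 in DMD, mostly from Abcc9 itself. The intervals of all 3 genes held 0 in BMD, and in DMD Kcnj11 and Abcc9 passed the rule whereas Abcc8 was just under 1.5-fold. Kcnj13 was higher in both libraries, from 12, 31 and 21 UMIs (log2 1.30 and 1.52), and Kcnj6, with 17, 32 and 17 UMIs, had intervals that held 0.

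Tandem-pore channels carry background potassium current. Kcnk2, which is opened by stretch, was at 43.3, 18.6 and 17.0 CPM (275, 124 and 66 UMIs). Kcnk2 had log2 ratios of -1.22 (-1.53 to -0.90) in BMD and -1.34 (-1.75 to -0.95) in DMD. Kcnk3, an acid-sensitive channel, was at 133, 147 and 109 CPM, with ratios of 0.15 and -0.29. The 2 members of this family with enough UMIs therefore differed from each other in both libraries.

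Of the small-conductance calcium-activated channels, Kcnn3 was at 28.0, 11.1 and 19.4 CPM (178, 74 and 75 UMIs), lowest in BMD. Its log2 ratio was -1.33 (-1.74 to -0.93) in BMD and -0.53 (-0.94 to -0.14) in DMD, and DMD was higher than BMD by 0.80 (0.32 to 1.28). Kcnn2 had 41, 15 and 29 UMIs, again lowest in BMD (log2 -1.52, -2.48 to -0.63), with 0.22 in DMD. Kcnn1 had 32, 29 and 8 UMIs and was lower in DMD (log2 -1.29, -2.61 to -0.14). Kcnma1, the large-conductance channel, was at 7.86, 11.9 and 6.97 CPM, with a log2 ratio of 0.59 (0.06 to 1.13) in BMD that was 0.37 as a mean over nuclei.

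Kcnc1 and Kcnc2, whose Kv3 pores give fast delayed rectifier current in neurons, were higher than in WT in both dystrophic libraries. Kcnc2 was at 6.61, 19.1 and 37.7 CPM (42, 127 and 146 UMIs). Kcnc2 had log2 ratios of 1.53 (1.02 to 2.07) in BMD and 2.51 (2.01 to 3.04) in DMD, with DMD above BMD by 0.98 (0.63 to 1.34). Kcnc1 had 22, 46 and 28 UMIs and was higher in BMD (6.91 against 3.46 CPM) and in DMD (7.23 CPM). Kcnc2 was also a gene of Schwann-like and fibroblast-like nuclei, at 72.5 CPM in fibroblast-like nuclei of WT, 84.1 of BMD and 44.9 of DMD. The fibroblast marker list summed to 3688, 3805 and 4296 CPM in cardiomyocyte-like nuclei and the Schwann list to 386, 567 and 394 CPM, and their part in the Kcnc2 result was not tested.

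Of the remaining members, Kcna2 was lower in both libraries, from 76, 25 and 20 UMIs (log2 -1.67 and -1.21). Kcng2, a silent subunit that changes the gating of other pores, was at 546, 496 and 547 CPM, with ratios of -0.14 and 0.00. Kcnt2 and Kcnq3 passed the rule in DMD (log2 1.45 and 1.37), from 18, 22 and 30 and from 14, 17 and 22 UMIs, and were also higher in DMD than in BMD. Over the libraries Kcnt2 had a mean of 1041 CPM in macrophage-like and Kcnq3 of 651 CPM in Schwann-like nuclei. The macrophage marker list summed to 74.1, 66.4 and 90.1 CPM in cardiomyocyte-like nuclei, of which 1.18, 1.11 and 4.33% were called doublets. The part of other cell types in the ratios of Kcnt2 and Kcnq3 was not tested. Kcnh3, Kcnh8 and Kcnrg had intervals that held 0 in both comparisons.

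At a finer clustering (Leiden resolution 1.0) the cardiomyocyte-like nuclei fell into 2 clusters whose shares differed between libraries. The larger one, with more Myh6 and Lsamp, held 88.5% of the WT, 31.25% of the BMD and 43.0% of the DMD nuclei of the class. The other one, with more Nppa and Xirp2, held the rest. Ratios within each cluster were therefore set beside the pooled ones, a comparison added after the data were seen. Kcnc2 was at 3.26, 6.96 and 18.0 CPM in the larger cluster, and at 29.8, 23.8 and 50.7 CPM in the smaller one. The BMD ratio of Kcnc2 was 1.10 in the larger cluster, from 18 and 13 UMIs and short of the rule. In the smaller one it was -0.32 (-0.97 to 0.38), whereas in DMD Kcnc2 was higher in both (log2 2.47 and 0.77). Kcnk2 was at 47.1, 32.1 and 25.1 CPM in the larger and had 15, 63 and 24 UMIs in the smaller cluster. Its ratio in BMD was -0.55 (-0.98 to -0.14) and -0.49 (-1.32 to 0.43) within clusters, past the rule in neither, beside -1.22 pooled. In DMD the ratio of Kcnk2 was -0.91 in the larger cluster, past the rule, and -0.83 (-1.82 to 0.21) in the smaller one. The BMD ratio of Kcnn3 was -0.67 and -0.48, past the rule in the larger cluster only, beside -1.33 pooled.

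Kcnj12 was lower than in WT within both clusters, by log2 -1.02 and -0.59 in BMD and -0.85 and -0.96 in DMD. Kcnj5 was at 220, 152 and 114 CPM in the larger and 168, 112 and 104 CPM in the smaller cluster, with ratios of -0.53 and -0.58 in BMD, short of 1.5-fold, and -0.95 and -0.70 in DMD. Kcnh2 was lower in DMD in both (log2 -0.62 and -1.23). In BMD its ratio was -0.14 (-0.52 to 0.22) in the larger cluster and -0.78 (-1.29 to -0.25) in the smaller one, with intervals that overlapped. Kcnj3 was higher in the smaller cluster of BMD, at 527, 832 and 683 CPM (log2 0.66), whereas in the larger one it was at 972, 1133 and 871 CPM (log2 0.22). In DMD its ratio was -0.16 in the larger and 0.37 in the smaller cluster, beside -0.28 pooled, so the sign differed. Kcnq1 in BMD had -0.04 (-0.08 to 0.01) in the larger and 0.24 (0.17 to 0.31) in the smaller cluster, beside -0.07 pooled. In DMD it had -0.39 and 0.07 (-0.00 to 0.15) in the same order, beside -0.30 pooled. Kcnd3 had -0.07 and 0.30 (0.18 to 0.43) by cluster in BMD, and -0.28 and -0.01 in DMD. These ratios of Kcnq1 and Kcnd3 were all under 1.5-fold. Kcna4 was higher in DMD in both clusters (log2 0.62 and 1.54). In BMD its ratio was 0.69 (0.26 to 1.12) in the larger cluster, past the rule, beside 0.34 pooled. It was 0.85 (-0.04 to 1.89) in the smaller one. Kcnip2 had 1 UMI in the smaller WT cluster beside 67 in BMD and 31 in DMD, while in the larger cluster its ratios were 0.36 and 0.76 and not past the rule. Some pooled calls were past the rule in neither cluster. Kcnn2 in BMD had log2 ratios of -0.72 (-2.03 to 0.40) in the larger and -0.75 (-3.14 to 2.55) in the smaller cluster, beside -1.52 pooled. Kcnab1 in DMD had 0.26 (-0.36 to 0.84) and 0.08 (-0.61 to 0.81), close to no difference, beside 0.63 pooled. Kcnt2 in DMD had 0.51 in the larger cluster and an interval of -0.79 to 3.41 in the smaller one, beside 1.45 pooled. For Kcna2 (-0.84 and -0.92), Kcnc1 (0.39 and 1.30) and Kcnn1 (-1.54 and 0.81, the latter from 1 and 5 UMIs) the pooled DMD call was likewise in neither cluster, nor was that of Kcnma1 in BMD (0.20 and -0.37). Other calls were in 1 cluster. Kcnq3 in DMD had 1.68 (0.20 to 3.13) in the larger and 0.08 (-1.64 to 2.17) in the smaller cluster, and Kcnj11 had -0.62 and -0.17. In BMD, Kcne1 had 1.34 and 1.28 and Kcnc1 had 1.40 and 0.71, past the rule in the larger cluster, while Kcna2 had -0.66 and -1.97 and passed it in the smaller one. Kcnj13 had 0.79 (-0.80 to 2.25) in BMD and 1.57 (0.20 to 2.90) in DMD in the larger cluster. In the smaller one it had 0, 23 and 10 UMIs, with intervals that held 0. Its BMD call was thus in neither cluster and its DMD call in the larger one only.

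Of 23 members with at least 50 UMIs in the larger cluster itself, 2 were higher (beside 4.19% of 8917 genes) and 2 lower (beside 7.46%) in BMD, and 2 were higher (beside 6.75%) and 6 lower (beside 8.51%) in DMD. Of 22 such members of the smaller cluster, 3 were higher (beside 3.44% of 8879 genes) and 2 lower (beside 9.02%) in BMD, and 3 were higher (beside 4.62%) and 5 lower (beside 10.6%) in DMD.

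**Figure D4:**
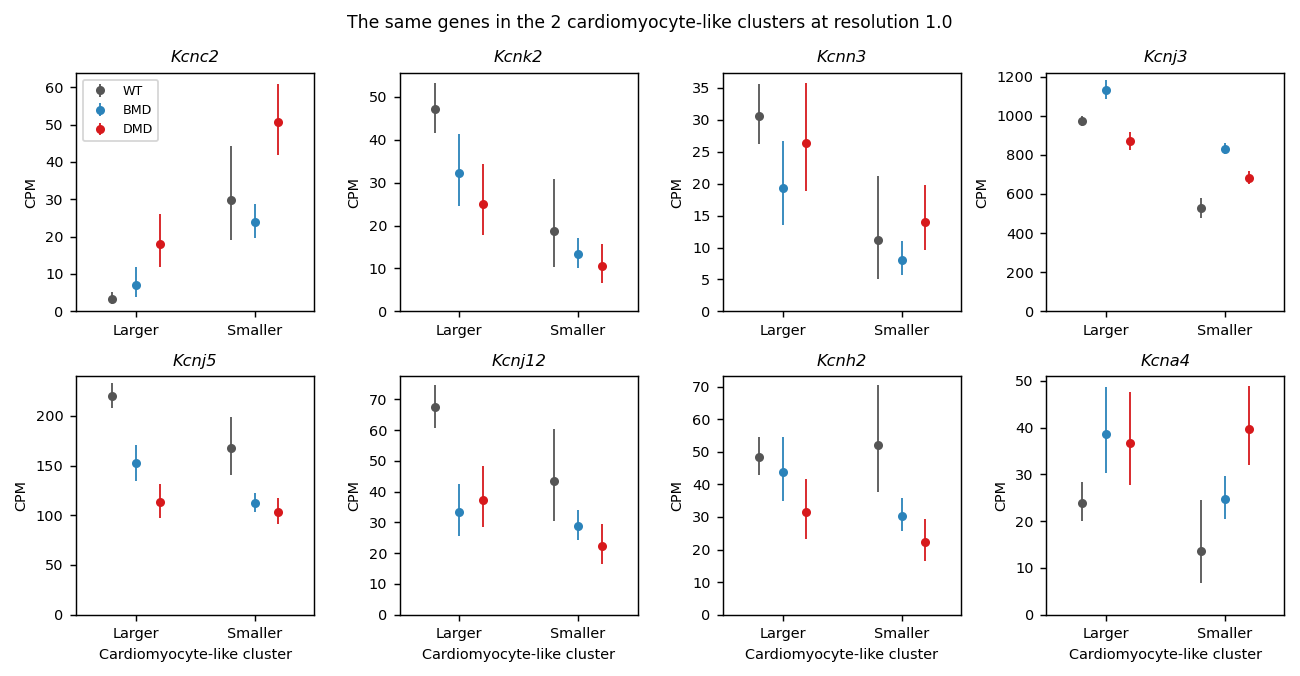
CPM of 8 members in the larger and the smaller cardiomyocyte-like cluster at resolution 1.0, by library (WT grey, BMD blue, DMD red), with 95% counting intervals. Kcnc2 is higher and Kcnk2 and Kcnn3 are lower in the smaller cluster of every library, whereas Kcnj5 and Kcnj12 step down from WT within both clusters.

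Pericyte-like nuclei were marked by Kcnj8, the pore of the vascular ATP-sensitive channel, at 545 CPM (491 to 603) in WT, 387 CPM (336 to 443) in BMD and, in DMD, 573 CPM (514 to 636). In cardiomyocyte-like nuclei Kcnj8 was at 0.516 to 0.786 CPM, from 2 to 5 UMIs, and its counting interval held the free RNA estimate in each library. BMD was below WT by a log2 ratio of -0.49 and did not reach 1.5-fold. At resolution 1.0, smooth muscle-like nuclei split off from the pericyte-like ones, and the members separated with them. Kcnj8 was at 657, 485 and 752 CPM in the pericyte-like and at 238, 117 and 117 CPM in the smooth muscle-like cluster. The pericyte-like cluster held 584, 364 and 413 nuclei and the smooth muscle-like one 74, 69 and 74, with 36.4% of the latter called doublets. Kcnma1, which relaxes vascular smooth muscle in response to calcium, went the other way, with 8.24, 2.65 and 10.1 CPM (4, 1 and 4 UMIs) against 259, 397 and 335 CPM. Kcnab1 was also a smooth muscle gene (321, 470 and 405 CPM, against 22.7 to 45.6 CPM), and Kcnh1 had 15, 20 and 23 UMIs in the pericyte-like and 0 in the smooth muscle-like cluster. Of 11 members with enough UMIs in the pericyte-like class as a whole, 4 passed the rule in BMD (beside 10.6% of 6282 genes) and 3 in DMD (beside 9.25%). Kcnab1 and Kcnma1 were higher than in WT in BMD (log2 0.90 and 0.99) and in DMD (log2 0.93 and 0.88), and both are genes whose level differed between those clusters. The proportion of the clusters differed between libraries, and its part in these ratios was not tested. Kcnq5 was lower in BMD, from 37, 9 and 25 UMIs. The others were genes of cardiomyocyte-like nuclei, Kcnd3, higher in BMD (24.9, 58.0 and 31.6 CPM), and Kcnq1, lower in DMD (248, 247 and 141 CPM, with 95.7, 63.5 and 23.8 CPM from free RNA by estimate). Kcnmb2, a beta subunit of the large-conductance channel, had 55.5, 56.1 and 38.3 CPM in this class.

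Macrophage-like nuclei were marked by Kcnt2, a sodium-activated channel, at 901, 1066 and 1157 CPM, and by Kcnk13, a tandem-pore channel, at 238, 328 and 309 CPM. Kcnn4, the intermediate-conductance calcium-activated channel of blood cells, was at 240 CPM (213 to 269) in WT, 133 CPM (112 to 157) in BMD and, in DMD, 77.8 CPM (61.4 to 97.2). Its intervals did not overlap, and its log2 ratio was -0.85 in BMD and -1.63 in DMD. In other classes the order was different, and beside them 12.6% (BMD) and 9.65% (DMD) of 3917 endocardial genes and 11.4% and 10.1% of 6142 lymphocyte genes passed the rule. Kcnn4 was at 71.6, 205 and 119 CPM in endocardial-like nuclei (log2 1.52 in BMD, and in DMD 0.73 with an interval that held 0) and at 45.5, 114 and 100 CPM in lymphocyte-like nuclei (log2 1.32 and 1.14). The lymphocyte-like cluster at resolution 1.0 that was largest over the libraries together held 39.1%, 61.8% and 42.7% of that class. Within it Kcnn4 had log2 ratios of 0.97 (0.13 to 1.85) and 1.05 (0.24 to 1.92). The next cluster held 54.8%, 24.2% and 43.7%, and ratios of Kcnn4 in the other lymphocyte-like clusters are not given here. In endothelial-like nuclei Kcnn4 was at 33.4, 26.3 and 30.4 CPM, with intervals that overlapped. Of 15 members with enough UMIs in macrophage-like nuclei, 3 passed the rule in BMD (beside 13.9% of 8470 genes) and 2 in DMD (beside 14.3%). These were Kcnn4 in both, Kcnq1 and Kcnj3, both higher in BMD, and Kcnj5, lower in DMD. The 3 latter are genes of cardiomyocyte-like nuclei, and free RNA was estimated at 22.5 to 28.6% of the UMIs of macrophage-like nuclei. Of the 350, 555 and 360 CPM of Kcnq1 there, free RNA was estimated to give 326, 267 and 173 CPM.

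In fibroblast-like nuclei 21 members had enough UMIs, and 7 passed the rule in BMD (beside 14.7% of 10664 genes) and 9 in DMD (beside 10.1%). The widest difference was in Kcnma1, at 1.45 CPM in WT, 9.65 in BMD and 13.4 in DMD from 7, 28 and 46 UMIs. Its log2 ratio was 2.74 (1.51 to 4.18) in BMD and 3.21 (2.06 to 4.61) in DMD, and both stayed past the rule without called doublets. Kcnv2, a silent subunit, was at 7.44, 16.9 and 21.9 CPM, with log2 ratios of 1.18 and 1.56, and Kcnab1 at 36.2, 56.2 and 69.1 CPM, with 0.63 and 0.93. Kcnip3, a neuronal calcium sensor, was lower, at 35.3, 10.7 and 20.7 CPM (log2 -1.73, -2.33 to -1.17, in BMD and -0.77, -1.19 to -0.36, in DMD). Kcnk5 was lower in BMD (log2 -0.80), and Kcns3 and Kcnc2 were lower in DMD (log2 -0.62 and -0.69). Kcnk13 was higher in DMD, from 51, 19 and 84 UMIs, and Kcnq5 was higher in BMD, from 53, 73 and 48 UMIs. Kcnt2 (69.4, 101 and 107 CPM) and Kcnj13 (17, 8 and 28 UMIs) were higher in DMD. Kcnq1 was higher in BMD, at 74.0, 114 and 91.0 CPM, of which free RNA was estimated to give 44.9, 41.1 and 18.3 CPM. Kcnn3, which had most of its UMIs in this class, was level at 165, 178 and 181 CPM, and Kcnd1 was at 20.9, 23.1 and 16.9 CPM.

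The fibroblast-like class was also uneven in its make-up. Of its 5 clusters at resolution 1.0, the largest held 49.5%, 37.7% and 48.2% of the WT, BMD and DMD nuclei, the next 37.7%, 15.8% and 19.4%, and the third 1.91%, 30.8% and 20.4%. Ratios within these 3 were added after the data were seen. Kcnma1 had 21 BMD and 35 DMD UMIs in the third cluster, which is most of its UMIs in the class, beside 1 UMI in WT. Within these 3 clusters it passed the rule only in DMD in the largest one, from 1 and 7 UMIs (log2 3.46, 0.50 to 8.95). Kcnv2 was higher in the largest (log2 1.25 in BMD and 1.41 in DMD) and in the next cluster (2.07 and 1.68), as pooled, and in the third its intervals held 0. Kcnip3 was lower in BMD in all 3 (log2 -1.17, -2.66 and, from 3 and 3 UMIs, -3.01), whereas in DMD it passed the rule only in the second, with -0.35 in the largest. Kcnab1 was at 0.41 in BMD and 0.69 in DMD in the largest cluster and at 1.66 and 1.39 in the next. Both Kcnk13 in DMD (log2 1.30 and 1.96) and Kcnq5 in BMD (1.95 and 2.37) passed the rule in the 2 largest clusters. For Kcnk5 in BMD (-0.37, -0.41 and -1.01) and Kcns3 in DMD (-0.45, -0.44 and -0.38) the pooled call was in none of the 3. Kcnc2 had DMD ratios of -0.55, 0.16 and -2.18, past the rule only in the third cluster, and was higher in BMD in the 2 largest (0.73 and 0.82). Kcnt2 in DMD had 0.49, 0.36 and 1.26, past the rule in the third. Kcnn3, level in the class, was at 173, 279 and 239 CPM in the largest cluster, a log2 ratio of 0.69 in BMD.

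**Figure D5:**
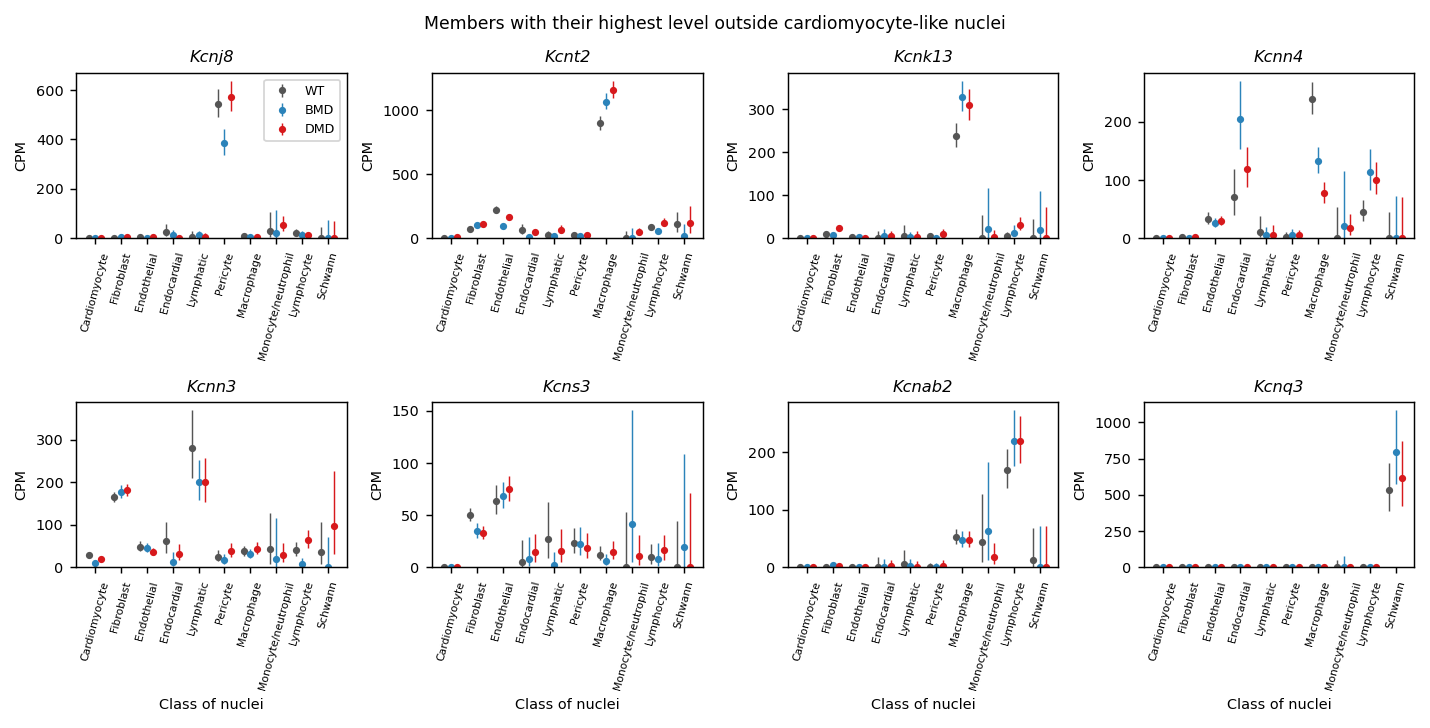
CPM of 8 members in the 10 classes of nuclei, by library (WT grey, BMD blue, DMD red), with 95% counting intervals and axes that start at 0. Kcnj8 stands out in pericyte-like, Kcnt2 and Kcnk13 in macrophage-like, Kcnab2 in lymphocyte-like and Kcnq3 in Schwann-like nuclei, and Kcnn4 steps down in macrophage-like but not in endocardial-like nuclei.

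In endothelial-like nuclei, 4 of 12 members passed the rule in BMD (beside 9.86% of 8936 genes) and 3 in DMD (beside 7.32%). Kcnt2 was at 222 CPM in WT, 99.2 in BMD and 168 in DMD, with a log2 ratio of -1.16 in BMD. Kcns3, a silent subunit, was at 63.8, 68.5 and 74.7 CPM, with intervals that overlapped. Kcnmb4, a beta subunit of the large-conductance channel, was higher in DMD, from 14, 23 and 54 UMIs (log2 1.37). Kcnab1 was lower in DMD, at 50.5, 54.8 and 31.4 CPM. Within the clusters at resolution 1.0 it was lower in DMD in the smallest (236, 176 and 100 CPM, log2 -1.23) and higher in the largest (5, 15 and 25 UMIs, log2 1.65). Kcnd3, higher in BMD, and Kcng2, higher in both, are genes of cardiomyocyte-like nuclei. Of 39.5 CPM of Kcnd3 in BMD, 18.9 CPM was the free RNA estimate. Kcnh3 was at 22.3, 25.2 and 29.9 CPM, with intervals that overlapped.

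Kcne2 and Kcne3, small beta subunits, had 161 and 60 UMIs in all and were too sparse for a ratio in cardiomyocyte-like nuclei. Smaller classes held few UMIs. Schwann-like nuclei, with 32 to 65 per library, had Kcnq3, the partner of the M current, at 534, 799 and 619 CPM, Kcnh8 at 316, 273 and 348 CPM and Kcnc2 at 413, 448 and 271 CPM, with intervals that overlapped across libraries for each gene. Kcnab2, a Kv beta subunit, was at 169, 220 and 219 CPM in lymphocyte-like nuclei. In lymphatic-like nuclei Kcnn3 was at 281, 201 and 200 CPM and Kcnk5 at 91.9, 78.4 and 82.5 CPM. In the monocyte- or neutrophil-like class, which held 31, 35 and 261 nuclei, the members with 50 UMIs or more were Kcnq1, Kcnd3, Kcnj3 and Kcng2, the same 4 that led the cardiomyocyte-like nuclei. Kcnq1 was at 1895, 1313 and 541 CPM there, and free RNA was estimated at 36.4, 45.4 and 73.4% of the UMIs of that class, with 442, 537 and 446 CPM of Kcnq1. Its part in these levels was not otherwise tested.

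A list of 31 partner genes of potassium channels was read in cardiomyocyte-like nuclei, where 21 had enough UMIs. The rule was passed upward by 3 of them (beside 7.87% of genes) and downward by 3 (beside 8.37%) in BMD. In DMD it was passed upward by 0 (beside 9.26%) and downward by 3 (beside 9.04%), with median log2 ratios of -0.02 and -0.08. Of the receptors upstream of the Kcnj3 and Kcnj5 channel, the muscarinic receptor Chrm2 was at 34.3, 58.3 and 40.8 CPM (log2 0.77 in BMD). The adenosine receptor Adora1 was at 9.91, 6.16 and 4.65 CPM, from 63, 41 and 18 UMIs. Its log2 ratios were -0.69 (-1.29 to -0.10) and -1.09 (-1.94 to -0.32). The pacemaker channels differed, with Hcn2 at 46.9, 83.8 and 59.6 CPM and Hcn4 at 69.5, 35.9 and 73.6 CPM. Irx3 and Irx5, factors known to shape the gradient of repolarisation, and Klf15, a factor known to act on Kcnip2, were under 1.5-fold in both comparisons (log2 -0.54 and -0.57 for Klf15).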

How the data were processed

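Single-nucleus RNA-seq was measured in 1 heart library each of WT, BMD and DMD rats. Alignment and counting by the authors used Cell Ranger, and the submitters' processing notes name build rn6. The labels and the study's methods name a 3′ kit, whereas its results name 5′ technology. The files deposited by the authors hold whole-number UMI counts for every gene and barcode. File headers name Cell Ranger 6.0.1 for the WT table and 4 for the others. The WT table is an aggregate of 3 libraries, of which the barcodes with the suffix -3 were used as WT, since -1 and -2 matched the BMD and DMD barcodes. In the aggregate these held 76.1% and 92.9% of the UMIs of their own tables and no entry above them, so its counts were thinned. BMD and DMD were therefore read from their own tables, and whether the WT counts were thinned is not known. The use of introns and strand in counting is not given in the sources used here.

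The barcodes with most UMIs were taken as nuclei, as many per library as the study kept, with at least 513 UMIs. Counts were clustered with scanpy 1.11.5 and igraph 0.11.9 at Leiden resolution 0.5, without Kcn, mitochondrial and sex genes and the 8 genes the study names for cardiomyocytes. A class needed 3 markers from its list, a marker having at least 10 UMIs and a CPM plus 5 of 2 times or more the value in the remaining nuclei. Among lists with 3 markers, the one with most genes among the 10 top genes gave the name. Ties, also where no such list had a gene there, went to the list with more markers. Clusters led by another list, with more than 5 mitochondrial genes among these, with at least 50% Scrublet doublets, or of low depth with no marker on top stayed unnamed. The rule on the leading list and on doublets was set after the data were seen. Names rebuilt in this way may differ from those of the study. Doublets were otherwise kept in the main setting.

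UMIs were summed per class and library and given as CPM with exact Poisson intervals, and ratios with exact conditional binomial intervals, at 95% (scipy 1.17.1). Shares have exact Clopper-Pearson intervals. PCR and cell sampling are not covered by these intervals. With 1 library per genotype no test was run. Genes needed 50 UMIs in the class, and ratios within a cluster were read for these genes whatever their UMIs in the cluster. Counts of members within the cardiomyocyte-like clusters needed 50 UMIs in the cluster. The interval and counting functions were tested on simulated data. The free RNA of a class was taken from barcodes with at most 50 UMIs, and its share as the smallest ratio over marker lists of other classes. TMM factors came from edgeR 4.0.16.

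The members and lists were chosen with earlier results of these data known. Genes were named if they were given for this report, belong to known cardiac currents, were among the 10 members with most UMIs, had 1 of the 8 highest or lowest ratios in cardiomyocyte-like nuclei among members with at least 100 UMIs, or were among the 3 leading members of another class. Kcnc1, Kcnj6, Kcnj13, Kcnh1, Kcnk10, Kcnk12, Kcnip1, Kcnip4, Kcnmb4, Kcnq5 and Kcnrg were named after their values were seen. Alternatives were a limit of 500 or 1000 UMIs, removal of doublets or of nuclei over 5% mitochondrial UMIs, resolution 1.0, Kcn genes in the clustering, free RNA subtraction, TMM, a mean over nuclei scaled to 10000, the thinned counts of the aggregate, CPM plus 5 without intervals, 200 UMIs and all nuclei. Immunostaining and physiology were not analysed here, and some genes are not reported here by name.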

Additional observations from a re-analysis of the deposited data

Results flagged for a closer look

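Kcnma1 was at 2086 CPM (1649 to 2603) in an unnamed cluster of 24 nuclei that no comparison above used, against 66.5 CPM in the named class where it was highest, with all libraries summed. The cluster held 0 nuclei of WT, 1 of BMD and 23 of DMD, all 78 UMIs came from the DMD library, and its top genes were Ibsp, Bglap, Col11a1, Mmp13 and Col2a1, which are known from bone and cartilage. Kcnip1 was at 374 CPM (205 to 628) in the same cluster, from 14 UMIs, against 6.04 CPM in the highest named class. Both were noted because they lie in nuclei outside the main comparisons and above every named class.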

How the results depend on the processing

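The 56 log2 ratios of named members in cardiomyocyte-like nuclei were recomputed under 13 alternatives and within the 2 cardiomyocyte-like clusters, which gave 792 values. Of these, 688 kept their direction and their side of the rule, 50 dropped below it, 9 passed it, 43 of ratios not past it changed sign, and 2 past it reversed. The reversed values were those of Kcnc2 (-0.32, -0.97 to 0.38) and Kcnma1 (-0.37, -1.22 to 0.58) for BMD in the smaller cluster. Both intervals held 0. Counts of members were within 1.5 times of the main ones in the other settings run, except as follows. With CPM plus 5 and no interval, 3 members were higher in BMD. With at least 200 UMIs in the class, 2 were higher in BMD and 4 in DMD. The share of all genes under these settings is not given here, so these counts cannot be set beside it. In the larger cluster 2 were higher and 2 lower in BMD and 2 higher in DMD (beside 4.19%, 7.46% and 6.75% of its genes), and in the smaller cluster 3 were higher and 2 lower in BMD and 3 higher and 5 lower in DMD (beside 3.44%, 9.02%, 4.62% and 10.6%). The higher UMI limit and the single clusters hold fewer genes or nuclei by construction, and CPM plus 5 brings the ratios of low genes nearer to 0. The shares of the clusters also differed between libraries. The part of each of these in the counts was not tested. Kcnj11 in DMD dropped below 1.5-fold under 7 of the 13 alternatives. With at least 200 UMIs over all nuclei there were 33 members. Without thinning, the share of cardiomyocyte-like nuclei with a Kcnj3 UMI was 76.6% in WT, 77.1% in BMD and 72.7% in DMD. Over the other classes, 24 of 24 named ratios kept their direction and side of the rule without doublets and 23 of 24 with free RNA subtracted, where Kcnk13 in BMD fibroblast-like nuclei passed it (log2 -0.90). Of 27 ratios of 5 named members within the 3 largest fibroblast-like clusters, 15 kept direction and side of the rule, 12 dropped below it and 0 reversed. No paired analysis was possible because each genotype has 1 library. With 1 library per genotype, differences between animals, dissections and runs cannot be told apart from genotype, and members with few UMIs were limited by depth.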
